A study of Mus musculus with 17 samples.

Results

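The 10 genes described here carry iron uptake and ferroptosis control: Tfrc, Slc11a2, Slc40a1, Fth1, Aco1, Ireb2, Hmox1, Gpx4, Acsl4 and Ncoa4. They were chosen by name for their function, though with earlier results of these data known. All 10 were measured among 18193 genes with a probeset of their own. The data are Affymetrix whole-genome mouse arrays of 17 primary neuroblastomas from TH-MYCN mice, with 1 array for each tumor. These mice are hemizygous for a human MYCN transgene that the tyrosine hydroxylase promoter drives in the neural crest, they were bred on an inbred background that the labels do not name, and the tumors were abdominal. Every tumor belongs to a single group, with no normal tissue and no second condition, and neither the sex nor the age of a mouse is stated for its tumor. The comparisons are therefore between tumors, which carry the numbers mad548 to mad565.

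Cells take up iron as transferrin through the transferrin receptor, release it from endosomes through the importer DMT1, store it in ferritin and export it through ferroportin. The iron regulatory proteins sense cellular iron and bind iron-responsive elements in messenger RNAs such as those of Tfrc, Fth1 and Slc40a1, which sets their stability or translation. Ferroptosis is an iron-dependent cell death in which polyunsaturated membrane lipids are oxidized, and the selenoenzyme GPX4 holds it back by reducing lipid hydroperoxides. Array values report messenger RNA and carry no information on protein or on iron itself.

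Values are log2 expression values per probeset, and each gene is given by its probeset of highest mean. Array medians lay between 6.28 and 6.51. Sympathoadrenal markers fitted the label, since 17 of 18 had a mean at or above the median gene (7.54). Marker scores of cell types other than the tumor cells differed between samples. The macrophage score, the mean log2 value of 14 macrophage genes, ran from 8.18 in mad558 through a median of 8.77 to 9.86 in mad562, and 11 of these 14 genes had a mean at or above the median gene. The hepatocyte score of 7 genes reached 9.59 in mad562 and at most 7.83 elsewhere. The skeletal muscle score was 9.80 to 12.09 in mad549, mad550 and mad553, apart from the other tumors. In whole tumors, fewer cells of a type and less RNA per cell cannot be told apart.

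Promoter windows of RefSeq (GRCm38.p6, 250 bases before to 50 bases after the start site) were at hand for 7 of the 10 genes. Aco1 and Acsl4 are shown because their values moved together most closely of all pairs, Fth1 because it followed the macrophage score, and Tfrc because it followed no other gene of the set. Capitals mark matches, on either strand, to 4 motifs searched by their letters: ACGTG (found in hypoxia response elements), TGACGT (found in cyclic AMP response elements), CCGCCC (the GC box) and CCAAT. An opposite-strand match reads as the reverse complement.
Aco1, chr4:40143015-40143314, plus strand: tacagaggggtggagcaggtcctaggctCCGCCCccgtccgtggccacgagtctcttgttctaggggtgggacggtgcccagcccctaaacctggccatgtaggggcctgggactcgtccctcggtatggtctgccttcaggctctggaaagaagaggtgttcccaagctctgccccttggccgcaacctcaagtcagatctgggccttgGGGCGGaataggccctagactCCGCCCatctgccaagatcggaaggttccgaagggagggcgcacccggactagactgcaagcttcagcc
Acsl4, chrX:142390486-142390785, minus strand: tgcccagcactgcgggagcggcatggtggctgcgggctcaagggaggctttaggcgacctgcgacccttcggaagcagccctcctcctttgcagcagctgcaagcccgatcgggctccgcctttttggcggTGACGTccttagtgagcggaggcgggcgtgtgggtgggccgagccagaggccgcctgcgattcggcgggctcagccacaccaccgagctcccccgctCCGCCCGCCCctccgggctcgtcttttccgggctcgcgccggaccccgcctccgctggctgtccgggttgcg
Fth1, chr19:9982396-9982695, plus strand: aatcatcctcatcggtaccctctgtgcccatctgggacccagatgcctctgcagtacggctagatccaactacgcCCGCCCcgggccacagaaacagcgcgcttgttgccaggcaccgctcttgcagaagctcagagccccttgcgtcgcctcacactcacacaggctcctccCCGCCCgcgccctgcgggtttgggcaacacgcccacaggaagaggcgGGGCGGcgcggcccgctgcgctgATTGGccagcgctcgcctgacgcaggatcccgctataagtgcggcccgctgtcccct
Tfrc, chr16:32608646-32608945, plus strand: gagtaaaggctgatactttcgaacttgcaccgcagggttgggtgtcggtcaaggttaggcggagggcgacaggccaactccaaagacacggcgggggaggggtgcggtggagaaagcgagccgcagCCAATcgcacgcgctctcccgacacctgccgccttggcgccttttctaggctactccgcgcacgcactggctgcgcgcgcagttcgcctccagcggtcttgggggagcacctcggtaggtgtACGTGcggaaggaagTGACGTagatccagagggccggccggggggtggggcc
Counted from the start site as base 1, with no base 0, the Tfrc window held CCAAT at -124, ACGTG at -2 and TGACGT at 14. The Acsl4 window held TGACGT at -119 and overlapping CCGCCC matches at -22 and -18. The Aco1 window held CCGCCC at -222, -40 and -19, and the Fth1 window held CCGCCC at -175, -77 and -30 and CCAAT at -7. Aco1 and Acsl4 thus shared CCGCCC, which 35.7% of the 32851 RefSeq promoter windows hold. It stood in 9 of the 14 windows of these genes, some of which overlap, and so was not particular to that pair. Tfrc and Fth1 had more than 1 window, and 1 of each is shown. ACGTG stood in 19.6% of all windows, TGACGT in 7.51% and CCAAT in 37.4%, and in 4, 5 and 5 of the 14 in turn. Of 2 further motifs, CACGTG, the canonical E-box of MYC proteins, stood in 7.15% of all windows and in 0 of the 14 windows of these genes, and TGACNNNGC, the antioxidant response element, in 12.4% and in 1, a window of Ncoa4. A match or its absence is a matter of letters and does not show whether a factor binds.

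Of the importers, Tfrc varied more for its level than Slc11a2 did. Tfrc encodes the transferrin receptor, and its value was 11.43 ± 0.30 (SD, n = 17), from 10.90 in mad564 through a median of 11.50 to 11.84 in mad555. The highest tumor was 1.92-fold above the lowest, and 90.3% of genes with a mean within 0.5 of Tfrc had a smaller SD. The tumors mad564, mad559 and mad565 lay together at the low end (10.90 to 10.97), and mad555, mad548 and mad561 at the high end. Slc11a2, which encodes DMT1, was at 7.34 ± 0.20, from 6.89 in mad559 to 7.64 in mad562, with a median of 7.39. Its spread was small for its level, since 24.2% of genes of similar mean had a smaller SD.

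Slc40a1, the gene of the exporter ferroportin, was among the 2 most variable of the 10. Its value was 10.53 ± 0.65, from 9.38 in mad558 through a median of 10.44 to 11.88 in mad562. That is a 5.64-fold range, and 98.9% of genes of similar mean varied less. The tumors next to the top were mad548 (11.57) and mad550 (11.38), so the high end did not rest on mad562 alone.

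Storage genes had narrower ranges than Slc40a1. Fth1, the ferritin heavy chain that oxidizes and stores iron, was at 13.29 ± 0.23, from 12.96 in mad556 through a median of 13.27 to 13.92 in mad562. By the probeset used, the next highest tumor was mad565 at 13.50. There mad562 stood apart from the other 16 tumors, which spanned 12.96 to 13.50. Its whole range was 1.94-fold, and 89.5% of genes of similar mean had a smaller SD. The other Fth1 probeset, also bright (mean 13.08), was instead highest in mad548 (13.50) and lowest in mad563 (12.49). Ncoa4, the receptor that carries ferritin to the lysosome for iron release, was at 10.83 ± 0.18, from 10.39 in mad563 through 10.85 to 11.13 in mad555. Of genes with a mean similar to that of Ncoa4, 52.6% had a smaller SD.

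The iron regulatory proteins differed from each other. Aco1, which encodes IRP1, the cytosolic aconitase that binds RNA when it lacks its iron-sulfur cluster, was at 9.96 ± 0.25, from 9.56 in mad552 through 9.96 to 10.39 in mad548. Ireb2, which encodes IRP2, was the steadiest of the 10 at 10.43 ± 0.15, from 10.19 in mad565 through 10.43 to 10.80 in mad560. In comparison, 21.1% of all genes had a smaller SD than Ireb2, against 71.4% for Aco1.

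Hmox1, the inducible heme oxygenase that frees iron from heme, had the widest range. It was at 8.27 ± 0.68, from 6.74 in mad552 through 8.16 to 9.28 in mad562, a 5.82-fold range. Its high end held mad562, mad565 (9.24) and mad554 (9.08) close together, whereas mad552 at the low end lay below the next tumor, mad563 (7.30).

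Of the lipid genes, Gpx4 was at 11.75 ± 0.21, from 11.33 in mad551 through 11.72 to 12.26 in mad562, with the next highest tumor at 11.98 (mad560). Acsl4, the ligase that feeds polyunsaturated fatty acids into membrane lipids, was at 8.23 ± 0.26, from 7.78 in mad552 through 8.27 to 8.67 in mad565. The median SD of the 10 genes was 0.24, beside 0.19 over all genes. By the probesets used, the tumor mad562 gave the highest value of 5 of the 10 genes (Slc11a2, Slc40a1, Fth1, Hmox1 and Gpx4). The tumor mad552 gave the lowest of 3 (Aco1, Hmox1 and Acsl4). How often each tumor was the extreme over all genes was not counted. The other probesets of Slc40a1 and Gpx4 were also highest in mad562, whereas that of Fth1 was highest in mad548. Those of Slc11a2 were highest in mad563, mad552 and mad549. The other Aco1 probesets were also lowest in mad552, and those of Acsl4 in mad559 and mad556.

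**Figure D1:**
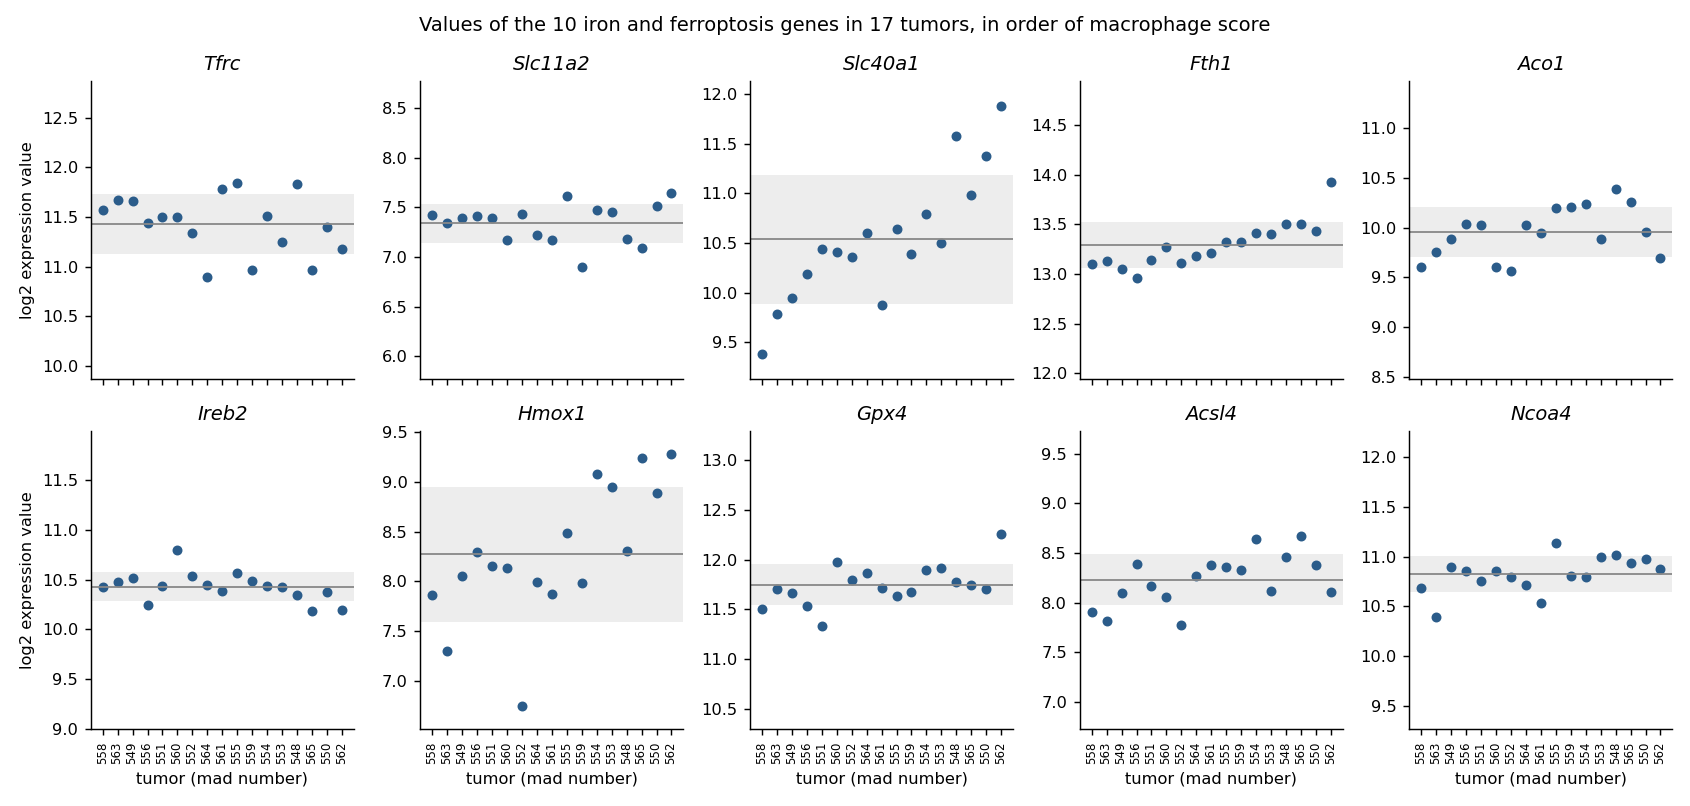
Log2 expression value (vertical axis, 3 log2 units in every panel) of each of the 10 genes in each of 17 tumors (points), ordered from left to right by macrophage score; the line is the mean and the band the mean ± 1 SD. Slc40a1 (9.38 to 11.88), Fth1 (12.96 to 13.92) and Hmox1 (6.74 to 9.28) climb from left to right, and Ireb2 (10.19 to 10.80) stays narrow.

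The tumor differences rested on several probesets for some genes and on 1 for others. The 10 genes have 26 probesets, of which 3 are array controls for Tfrc. The second probesets of Slc40a1, Gpx4 and Fth1 followed the ones used with r = 0.97, 0.93 and 0.80 over the 17 tumors. For Aco1 the brighter of its other probesets gave r = 0.68 and the dimmer 0.34. The Tfrc control probesets for the 3′ end, middle and 5′ end of the transcript gave r = 0.75, 0.57 and 0.39 at means of 5.50, 4.21 and 3.88, near the bottom of the scale, and its remaining dim probesets gave 0.33 and 0.51. Likeness was low for Slc11a2 (0.20 to 0.57), for Ncoa4 (0.14) and for Acsl4, whose other probesets were dim (0.04 and 0.49). Ireb2 and Hmox1 have 1 probeset each. These coefficients describe the same RNA read by different probes. The probesets used for Fth1, Gpx4 and Aco1 carry suffixes that mark possible matches to related transcripts.

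**Figure D2:**
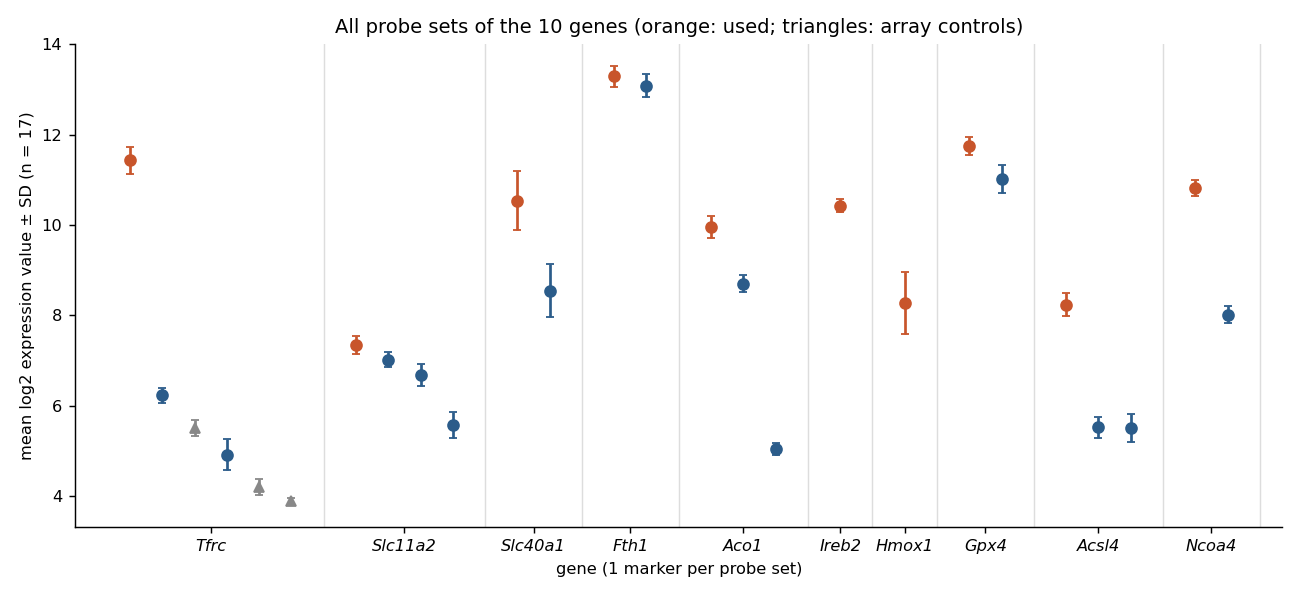
Mean log2 expression value ± SD over 17 tumors (vertical axis) of each of the 26 probesets of the 10 genes (horizontal axis); orange marks the probeset used, blue the others and gray triangles the array controls. The error bars are widest for Slc40a1 (SD 0.65) and Hmox1 (SD 0.68); levels of different probesets are not comparable with each other.

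The question of which cell content or program the genes followed was put to 11 list scores with limma over all 18193 genes. Against the macrophage score, the exporter, the storage gene and the heme oxygenase rose together, and the importers did not. Slc40a1, Fth1 and Hmox1, 3 of the 10 genes, passed an adjusted p of 0.05, each with a positive slope, where 4.12% of all genes did so. Over all genes 749 rose and 103 fell with the score, or 661 and 469 when each array was centred on its median. Slc40a1 gained 1.31 ± 0.14 (SE) log2 units per unit of the score (limma adjusted p = 2.2e-05), Fth1 gained 0.46 ± 0.058 (adjusted p = 8.7e-05), and Hmox1 gained 1.09 ± 0.24 (adjusted p = 0.0090).

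The correlations of these 3 genes with the score over tumors were all positive. For Slc40a1, Pearson's r was 0.92 and Spearman's rho 0.87 (permutation p = 1e-05, the smallest that 100000 resamples can give, and 4e-05, two-sided; 0.00055 and 0.0022 after adjustment over 110 relations of the 10 genes with the 11 scores). For Fth1 r was 0.91 and rho 0.93 (permutation p = 1e-05 for both; adjusted 0.00055 and 0.0011). For Hmox1 r was 0.73 and rho 0.74 (permutation p = 0.00079 and 0.00096; adjusted 0.029 and 0.035). Without the 2 tumors farthest from the median score, r was 0.86, 0.87 and 0.63 in turn. The relations were not carried by a single macrophage marker. The correlation of Slc40a1 with the 14 macrophage genes had a median of 0.82 and was positive for 13, highest for C1qa (0.91) and lowest for Itgam (-0.07). Fth1 was positively correlated with all 14 (median 0.75, highest C1qc at 0.91, lowest Itgam at 0.03). So was Hmox1 (median 0.59, highest Mrc1 at 0.77, lowest Itgam at 0.008). Positive signs were not particular to these 3 genes. Ncoa4 was positive with all 14 (median 0.43), Gpx4 and Acsl4 with 13 each (medians 0.44 and 0.39), and Slc11a2 and Aco1 with 11 each (0.11 and 0.29).

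The tumor mad562 was highest in both the macrophage and the hepatocyte score. Without it, Slc40a1 kept a slope of 1.29 (limma adjusted p = 0.00098) and Fth1 one of 0.37 (adjusted p = 0.0036), whereas Hmox1 had a slope of 1.12 and no longer passed (adjusted p = 0.061). The 3 genes passed without mad549, mad550 and mad553, and also with the difference between the 3′ and 5′ Gapdh control probesets, a measure of RNA integrity, as a covariate. That difference ran from 2.32 to 2.77 and had r = 0.37 with the macrophage score. What part hepatocyte RNA in mad562 has in these slopes was not tested.

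For the other 7 genes limma gave no call. Gpx4 had a slope of 0.27 ± 0.092 (r = 0.59, limma adjusted p = 0.12) that came to 0.15 without mad562 (adjusted p = 0.57). Acsl4 was at 0.28 ± 0.13, Ncoa4 at 0.21 ± 0.087 and Aco1 at 0.19 ± 0.13, with adjusted p of 0.27, 0.20 and 0.52. Without mad562 the slope of Acsl4 was 0.47 (adjusted p = 0.099) and that of Aco1 0.40 (adjusted p = 0.14), both higher than with it and still not called. Tfrc and Ireb2 had negative slopes, of -0.21 ± 0.15 and -0.17 ± 0.077 (adjusted p = 0.54 and 0.26), and Slc11a2 was near 0 at 0.04 ± 0.12 (adjusted p = 0.92), or -0.08 without mad562 (adjusted p = 0.86). Tfrc was positively correlated with 1 and Ireb2 with none of the 14 macrophage genes (medians -0.26 and -0.37). Ireb2 and Tfrc also had r = -0.58 and -0.52 with the Gapdh 3′ to 5′ difference, and with it as a covariate their slopes were -0.12 and -0.10 (adjusted p = 0.57 and 0.86).

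**Figure D3:**
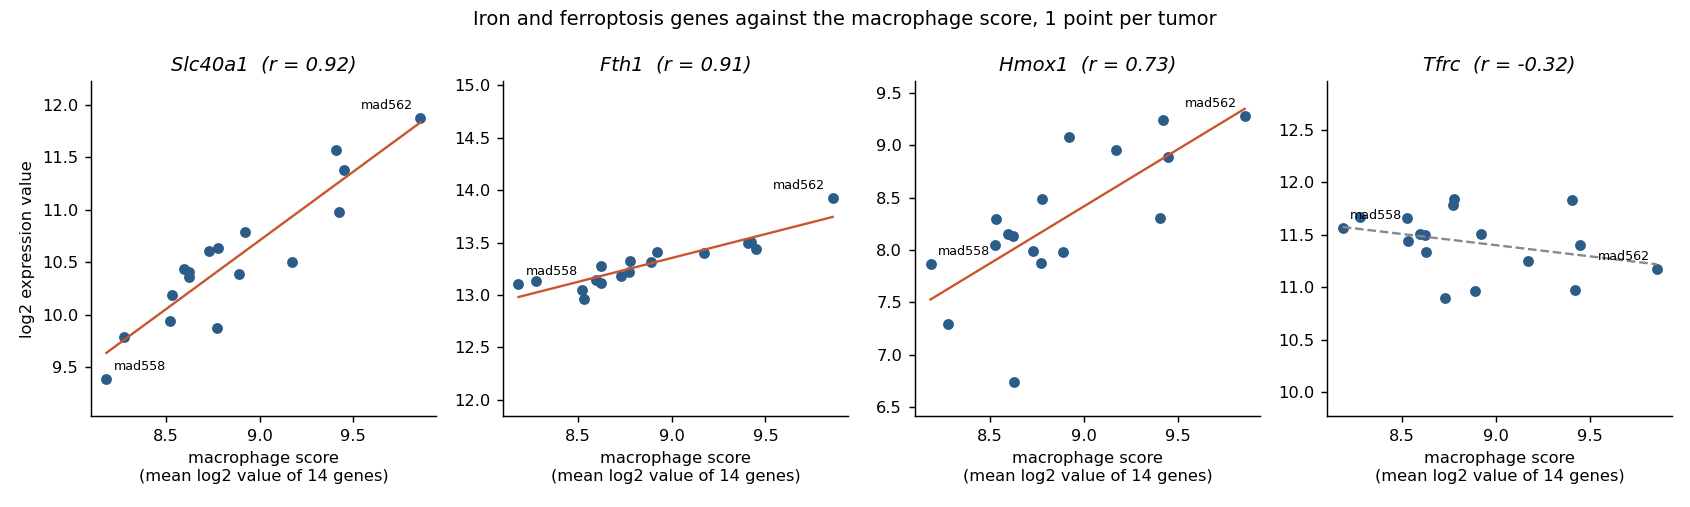
Log2 expression value (vertical axis) of Slc40a1, Fth1, Hmox1 and Tfrc against the macrophage score (horizontal axis, mean log2 value of 14 genes), 1 point per tumor, with the limma line solid where the adjusted p was under 0.05 and dashed where it was not. The slopes were 1.31, 0.46 and 1.09 for the first 3 and -0.21 for Tfrc, and mad562 lies at the right edge of every panel.

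None of the 100 relations with the other 10 scores (erythroid, endothelial, fibroblast, adipose, hypoxia, NRF2 targets, ATF4 targets, proliferation, MYC targets and sympathoadrenal) passed by limma, the lowest adjusted p being 0.16, although 11 had an unadjusted p under 0.05. Few genes of any kind passed with these scores: of the 181930 relations of all genes with them 0.316% did, from 0 genes for NRF2, ATF4 and MYC targets to 215 for proliferation, so that 0 of 100 is near the background. The permutation test also called 0, with 8 unadjusted. Ncoa4 with the fibroblast score had the strongest correlation among them (r = 0.70, rho = 0.51, permutation p = 0.0023 and 0.038, adjusted 0.062 and 0.30, r = 0.55 without the 2 farthest tumors). That value rests on 1 Ncoa4 probeset, which its other probeset followed with r = 0.14. Aco1 had r = 0.62 and rho = 0.64 with MYC targets (permutation p = 0.0077 and 0.0074, adjusted 0.14 and 0.20, r = 0.58 without the 2 farthest). Acsl4 had r = 0.64 and rho = 0.55 with ATF4 targets (permutation p = 0.0057 and 0.024, adjusted 0.13 and 0.30, r = 0.46 without the 2 farthest). Without mad554, the tumor of lowest endothelial score, Hmox1 passed with the endothelial score (slope 2.05, limma adjusted p = 0.013). Over all 18193 genes 499 rose with that score without mad554, in place of 126 with all tumors.

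The 45 pairs of the 10 genes were then compared over the tumors. The median r was 0.18 and 26 pairs had a positive r. The two-sided permutation test, adjusted over the 45 pairs, called 6, all positive, with 9 unadjusted, and limma fits of all genes on each of the 10 called 3 of the pairs in at least 1 direction. Of the 6, 4 joined Fth1, Slc40a1, Hmox1 and Gpx4, and the others were Aco1 with Acsl4 and Hmox1 with Acsl4. Pairs of other genes were not tested in this way, so the counts of 6, 9 and 26 have no background share beside them. With single genes of the set as predictors, limma called from 0 of 18192 genes (Slc11a2, Ireb2 and Acsl4) to 959 (Fth1).

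The closest pair was Aco1 with Acsl4. Both were lowest in mad552 (9.56 and 7.78), and mad548, mad565 and mad554, the highest tumors for Aco1 (10.39, 10.25 and 10.23), were also high for Acsl4 (8.46, 8.67 and 8.64). Their r was 0.86 and rho 0.89 (permutation p = 7e-05 and 2e-05; adjusted 0.0016 and 0.0009), with r = 0.84 without the 2 tumors of most extreme Aco1. Acsl4 stood at rank 5 of 18192 genes by its correlation with Aco1, and Aco1 at rank 2 by its correlation with Acsl4. In the fit over all genes the adjusted p was 0.062 and 0.073 in the 2 directions, and 1 gene of 18192 passed with Aco1 (0.0055%). It was also the only pair called after each gene was fitted on the macrophage score (r of residuals 0.84, adjusted p = 0.0014). The choice of probeset mattered: r was 0.67 with the more specific Aco1 probeset (adjusted p = 0.029) and 0.49 with means of all probesets (adjusted p = 0.22). The difference between the 3′ and 5′ actin control probesets had r = 0.59 with Aco1 and 0.49 with Acsl4, and its part in the relation was not tested.

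Slc40a1 and Fth1 formed the other close pair, with r = 0.84 and rho = 0.87 (permutation p = 1e-05 and 8e-05; adjusted 0.00045 and 0.0018; 0.72 without the 2 farthest tumors). Fitted over all genes, the pair passed in both directions (limma adjusted p = 0.0019 and 0.00044). With Slc40a1 as the predictor 3.06% of all genes passed with a positive slope, and Fth1 alone among the 9 other genes of the set. With Fth1 as the predictor 5.05% passed, and 3 of the 9 did, namely Slc40a1, Hmox1 and Gpx4. After both were fitted on the macrophage score, the r of the residuals of Slc40a1 and Fth1 was 0.03.

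The other 4 called pairs lay closer to the threshold. Fth1 with Hmox1 had r = 0.70 and rho = 0.75 (permutation p = 0.0017 and 0.00081; adjusted 0.025 and 0.0091; 0.77 without the 2 farthest), and the call was lost in 1 of 17 cases when each tumor was left out, namely without mad562 (r = 0.66, adjusted p = 0.055). Slc40a1 with Hmox1 had r = 0.63 and rho = 0.82 (permutation p = 0.0065 and 0.00016; adjusted 0.049 and 0.0024; 0.62 without the 2 farthest), and the call was lost in 14 of 17 such cases, in all but those without mad548, mad552 or mad553, with r between 0.55 and 0.64. With means of all probesets its adjusted p was 0.080 and with centred arrays 0.074. Fth1 with Gpx4 had r = 0.71 and rho = 0.54 (permutation p = 0.0026 and 0.026; adjusted 0.029 and 0.13), and r was 0.39 without the 2 farthest tumors and 0.47 without mad562 (adjusted p = 0.18), so that relation rested on them. Its call was also lost without mad556 or mad558. Hmox1 with Acsl4 had r = 0.67 and rho = 0.58 (permutation p = 0.0032 and 0.017; adjusted 0.029 and 0.11; 0.71 without the 2 farthest), and 0.78 without mad562 (adjusted p = 0.0063). The call of that pair was lost in 6 of 17 cases (without mad552, mad554, mad556, mad558, mad563 or mad565, with r down to 0.56), r was 0.49 with means of all probesets (adjusted p = 0.22), and limma over all genes gave adjusted p of 0.15 and 0.26. Tfrc entered no called pair. Its r was 0.31 with Slc11a2, the other importer, -0.25 with Slc40a1 and -0.25 with Fth1 (permutation p, adjusted over the 45 pairs, of 0.42, 0.53 and 0.53).

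**Figure D4:**
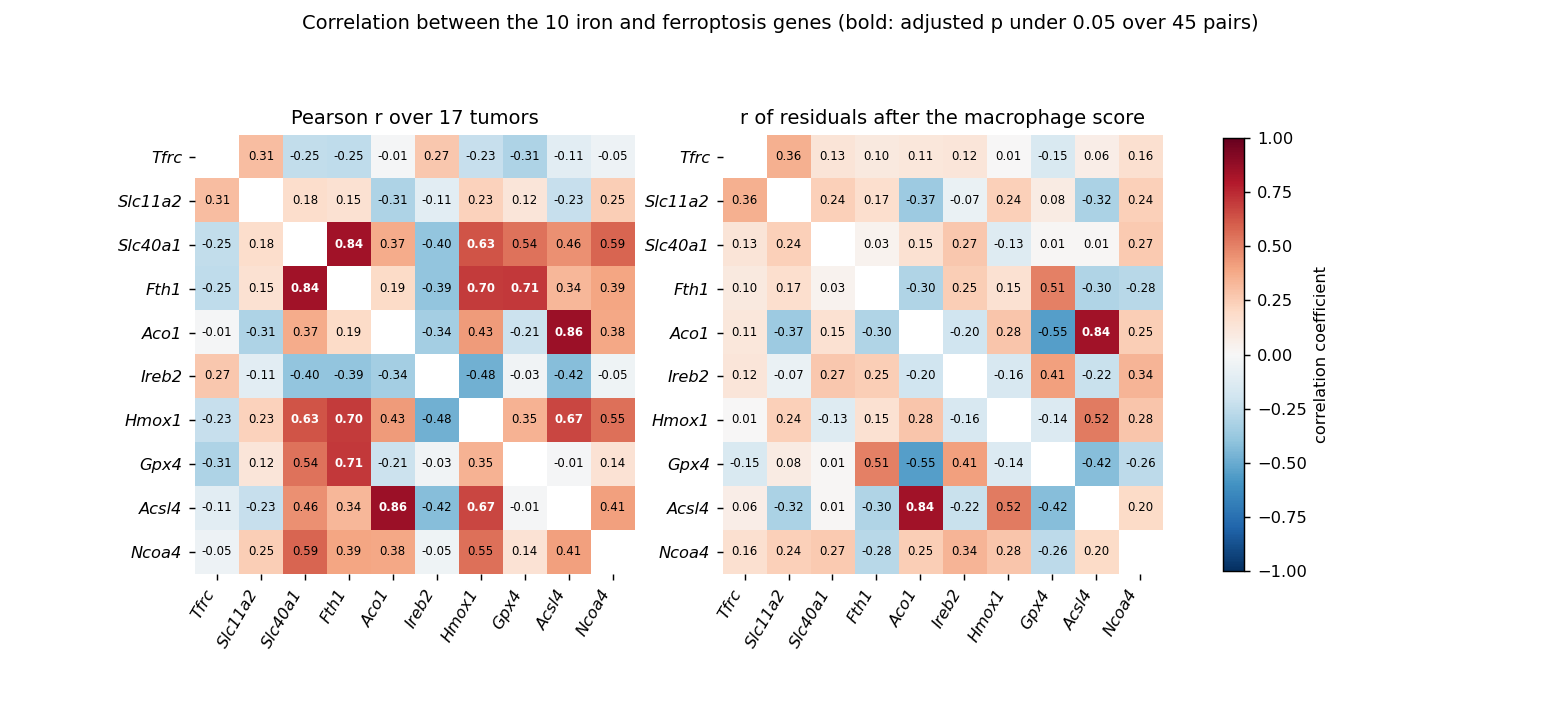
Correlation coefficients for every pair of the 10 genes over 17 tumors, as measured (left) and for residuals after a fit on the macrophage score (right); the color scale runs from -1 to 1 and bold marks a permutation p under 0.05 after adjustment over 45 pairs. On the left 6 pairs are bold, on the right Aco1 with Acsl4 alone (0.84), and Slc40a1 with Fth1 goes from 0.84 to 0.03.

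By the correlation over 17 tumors, among about 4434 genes of at least median level and an SD of at least 0.2, the genes most like each of the 10 were as follows, given as a description. Slc40a1 was closest to Clec4n (0.95), a myeloid lectin receptor, to the lysosomal protease gene Ctsd (0.93) and to the complement gene C1qa (0.91). Fth1 was closest to the lysosomal gene Ctsa (0.93), to Oas1a (0.92), an interferon-induced gene, and to the nuclear RNA Neat1 (0.91). Hmox1 was closest to Necap2 (0.86), Ahnak (0.84) and the complement inhibitor gene Serping1 (0.83). Ncoa4 was closest to 3 mesenchymal genes, Vim (0.84), Postn (0.81) and Col3a1 (0.79), by a probeset that its other probeset followed with r = 0.14. Tfrc was closest to Phf6 (0.86), the glucose transporter gene Slc2a3 (0.83) and Retreg1 (0.82), an endoplasmic reticulum autophagy receptor. Aco1 and Acsl4 each had the other among their closest, beside Smarcd2 (0.88) and Cyp20a1 (0.84) for Aco1 and Dynlt3 (0.86) and the syndecan gene Sdc1 (0.83) for Acsl4. Gpx4 was closest to Actn4 (0.85), Drap1 (0.84) and Csk (0.83), Slc11a2 to Lpp (0.79), Camkk2 (0.78) and Crtc3 (0.77), and Ireb2 to Ptprk (0.71), Zfp950 (0.70) and Rgmb (0.70).

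The wider pathway was read from 6 lists, of which 106 of 119 genes were measured. These lists do not hold Slc40a1, Fth1 or Hmox1, which rose with the macrophage score as given above. Of the 106, 7 rose with the macrophage score and none fell, or 6.60%, beside 4.12% of all genes. Among iron uptake and export genes 3 of 22 rose, namely Hfe, the hemochromatosis protein that binds the transferrin receptor (slope 1.51 ± 0.18, limma adjusted p = 6.8e-05), Cp, the ferroxidase ceruloplasmin that works with ferroportin (1.37 ± 0.22, adjusted p = 0.00075), and the metalloreductase Steap4 (0.90 ± 0.19, adjusted p = 0.0072). None of 11 genes in the list named storage and chaperones rose, but that list leaves out Fth1, which did rise. Of 21 genes of mitochondrial iron, heme and iron-sulfur clusters 1 did, namely Blvrb, a biliverdin reductase (0.93 ± 0.12, limma adjusted p = 9e-05). The others were Gpx1, 1 of 13 glutathione and cystine genes (0.64 ± 0.12, adjusted p = 0.0032), Nfe2l2, which encodes NRF2, 1 of 21 other defense genes (0.75 ± 0.21, adjusted p = 0.047), and Sat1, a polyamine acetyltransferase, 1 of 18 lipid peroxidation genes (0.68 ± 0.15, adjusted p = 0.0079). Except for Nfe2l2, all of these were highest in mad562. Without that tumor Hfe (adjusted p = 0.0022), Cp (0.029) and Blvrb (0.0026) still passed, and Steap4 (0.16), Gpx1 (0.075), Nfe2l2 (0.28) and Sat1 (0.075) did not, at slopes of 0.61, 0.52, 0.61 and 0.66 in turn. Over all genes the number that rose was 300 without it, in place of 749. Nfe2l2 lost its call in 13 of 17 cases when each tumor was left out (slopes 0.61 to 0.77), and also failed to pass without the 3 tumors of high muscle score (adjusted p = 0.087) and with the Gapdh covariate (adjusted p = 0.16).

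**Figure D5:**
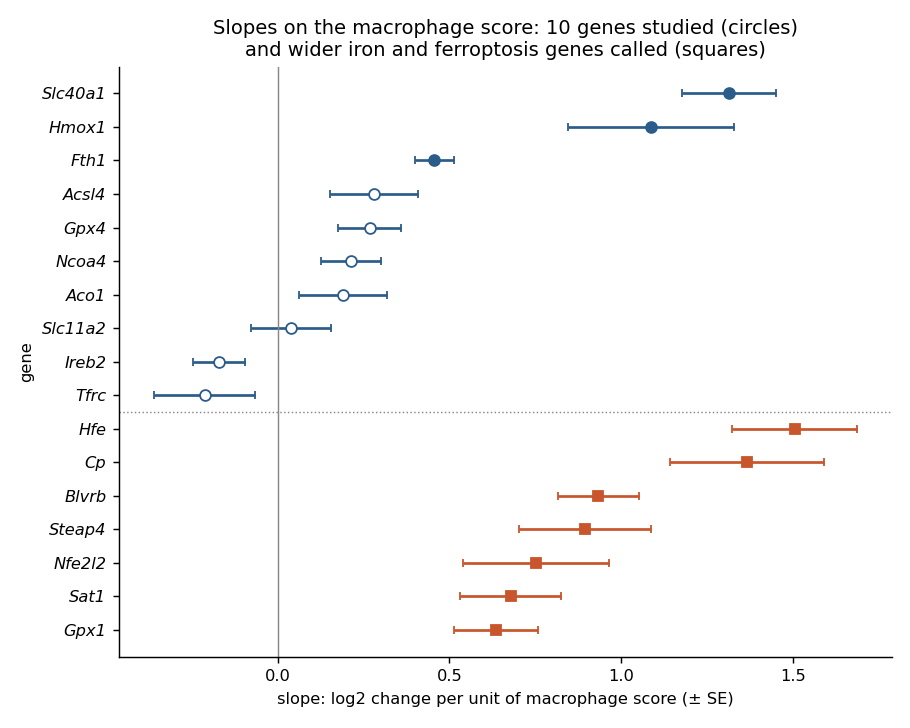
Slope of each gene on the macrophage score (horizontal axis, log2 change per unit of score, ± SE, n = 17 tumors), with the 10 genes above the dotted line (circles, filled where the limma adjusted p was under 0.05) and, below it, the 7 wider pathway genes that passed (squares). Slc40a1 (1.31) and Hmox1 (1.09) lie furthest right among the 10, and Hfe (1.51) and Cp (1.37) among the wider genes.

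Few pathway genes followed other cell scores. Fech, the ferrochelatase that completes heme, rose with the erythroid score (slope 3.08 ± 0.40, limma adjusted p = 0.0034), 1 of 106 where 0.0275% of all genes rose. That score spanned 5.66 to 6.41, and 1 of its 9 measured genes had a mean at or above the median gene. The Fech call ended when list genes were scaled to the same SD (adjusted p = 0.76), with the more specific Fech probeset (slope 0.56 ± 0.42) and without mad555, its highest tumor (slope 2.90, adjusted p = 0.16). Mgst1, a microsomal glutathione transferase (0.82 ± 0.10, adjusted p = 0.00041), and Scd1, the desaturase that makes monounsaturated fatty acids (1.17 ± 0.18, adjusted p = 0.0032), rose with the adipose score, 2 of 106 where 0.148% of all genes rose. The adipose score ran from 6.15 in mad552 to 9.05 in mad548. The Mgst1 slope turned to -0.01 with its more specific probeset (adjusted p = 0.96), and Scd1 did not pass with scaled list genes (adjusted p = 0.11).

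Spread in the wider lists was concentrated in a handful of genes. The median SD per list was 0.26 for iron uptake and export, 0.14 for storage and chaperones, 0.18 for mitochondrial iron and heme, 0.27 for glutathione and cystine supply, 0.20 for other defense and 0.20 for lipid peroxidation. An SD of at least 1 was reached by 4 genes. Hspb1, a small heat shock protein, ran from 8.15 in mad563 to 13.63 in mad565, and Scd1 from 8.92 in mad554 to 13.50 in mad562. Cd163, the macrophage receptor for hemoglobin and haptoglobin, which also belongs to the macrophage list, ran from 3.89 in mad555 to 8.28 in mad548. Hjv, the hemojuvelin gene expressed in muscle and liver, ran from 5.06 in mad548 to 8.69 in mad553, the tumor of highest skeletal muscle score (12.09). Elsewhere the largest SDs were those of Epas1 (0.44) and Bola2 (0.29) in the list named storage and chaperones, and Fech (0.63) and Blvrb (0.47) in that of heme. Those of the glutathione supply list were Mgst1 (0.88) and Cth (0.58), and those of the lipid peroxidation list Nox4 (0.51) and Sat1 (0.42). Slc7a11, the cystine importer whose loss of function promotes ferroptosis, was dim and steady at 4.19 ± 0.12.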

How the data were processed

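RNA from 17 TH-MYCN tumors was hybridized to Affymetrix mouse arrays, 1 per tumor. The deposited values are log2 expression values that the authors made with RMA (background correction, quantile normalization, 1 value per probeset) in Partek version 6.4 by the labels, although the study's methods name MAS5. They ranged from 3.28 to 15.59 and were used without further normalization. Arrays have no read depth, so that the number of tumors limits the precision. Of 45101 probesets, those with 1 symbol in the platform annotation gave 18193 genes, each by its probeset of highest mean.

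List scores were means of log2 values, without the gene tested. Relations were fitted with limma 3.58.1 (R 4.3.3, eBayes with trend) and adjusted by Benjamini-Hochberg over all genes, with a threshold of 0.05. Correlations used two-sided permutation tests (100000 resamples, NumPy 2.4.6, seed 1), with ranks from SciPy 1.17.1. Both were tested on simulated data. The genes and lists were chosen with earlier results of these data known. Genes named were the 10, the 3 most alike for each, the 2 list genes of largest SD in each list, those with an SD of at least 1, and the 2 list genes of largest slope among those called. Steap4, Gpx1, Nfe2l2, Slc7a11 and the single macrophage markers were named after their values were seen. Alternatives changed the value per gene, the probesets, the scaling, the filter on low values, the score, the covariates, the test and the tumors used.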

Additional observations from a re-analysis of the deposited data

How the results depend on the processing

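No paired analysis was possible because the labels describe 1 condition with a single array per tumor. The count of 3 genes called with the macrophage score stayed at 2 to 3 under every alternative run, and at 2 to 3 when each tumor was left out in turn; 2 came without mad562, where Hmox1 did not pass. The count of 0 for the other scores stayed at 0 under every alternative run with all tumors, and was 0 to 1 when each tumor was left out (1 without mad554).

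The count of 6 pairs was the least stable. It was 3 with means of all probesets, 2 with arrays centred on their median, 3 without the 3 tumors of highest skeletal muscle score, 3 without mad562, 1 for residuals after the macrophage score and 3 by limma over all genes, the last chosen after seeing the data. Leaving out each tumor gave 3 to 6 (3 without mad556, mad558 or mad562). For Slc40a1 with Hmox1 the r of the residuals after the macrophage score was -0.13 (permutation adjusted p = 0.81). No relation in either direction was thus called for that pair after the score. The cause of this loss was not tested. With means of all probesets the median SD of the 10 genes was 0.21 in place of 0.24. Values near the bottom of the array's scale say little about differences between tumors.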
